A study of Mus musculus with 12 samples.

Results

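Solute carriers are membrane proteins that move amino acids, sugars, nucleosides, vitamins, metals and inorganic ions across the cell surface or the membranes of organelles. Messenger RNA of 174 genes with an Slc symbol was followed in mouse CD8 T cells at rest and after they met an antigen. The table held 16353 genes and 321 Slc symbols. Left out were 43 mitochondrial Slc25a carriers, 10 nutrient and iron transporters named beforehand (Slc2a1, Slc2a3, Slc7a5, Slc3a2, Slc1a5, Slc7a1, Slc38a2, Slc16a1, Slc16a3 and Slc40a1) and 94 genes with too few reads. A gene was taken when at least 10 reads had been counted in each of 3 or more of the 12 libraries, so members were chosen by their measured read counts. Just inside this limit, Slc22a13, Slc15a1, Slc39a5 and Slc27a6 each had 10 reads in their third-highest library, and just outside it Slc12a8, Slc5a11 and Slc27a2 each had 9. Of the 174 genes, 132 reached 10 reads in all 12 libraries and 42 in 3 to 11 of them. Slc2a4, Slc7a4, Slc30a10 and Slc22a4 reached it in naive libraries alone and so had to be lower elsewhere. By name 171 members are carriers, and the other 3 rows, Slc4a1ap, Slc7a6os and Slc9a3r1, are a binding partner, a neighbour and a scaffold of carriers.

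The cells carried the transgenic KB5 T cell receptor and were sorted as KB5-receptor-positive CD8 cells, to 95% purity by the labels, from spleens of CBA/J background mice. Each of 4 groups had 3 libraries. For activated cells, mice were injected intravenously with 10 M (mega) C57BL/6 splenocytes, the source of the H2b antigens, which the labels call a donor-specific transfusion. For tolerized cells, the same transfusion was combined with 0.5 mg of an antibody to CD154, the CD40 ligand, whose blockade takes away costimulation. For inflamed cells, the transfusion and the antibody were joined by 100 µg of LPS (lipopolysaccharide), a bacterial cell wall component that provokes inflammation. Naive cells came from untreated mice. Spleens were taken 12 h after treatment. The labels give neither the age of the mice nor whether each library came from other animals, so p-values refer to the spread among these libraries only, which may be technical.

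A resting T cell takes up little more than it needs to persist. On activation it grows, copies its DNA and divides, and it is known to raise the uptake of amino acids, glucose, folate and nucleosides, while chloride, potassium and proton carriers set its volume and pH and zinc importers feed signalling enzymes and transcription factors.

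Each library held 29.3 M to 84.5 M reads assigned to genes. Values are counts per M reads (CPM), scaled by trimmed mean of M factors. The sum of 7 T cell markers was 2586 to 3889 CPM in antigen-exposed libraries, against 4356 to 5381 CPM in naive libraries. Zap70 alone of the 7 had higher means in exposed cells. These were 448, 471 and 563 CPM in activated, tolerized and inflamed cells, against 168 CPM in naive cells. Markers of other cells also differed between libraries. The sum of 10 macrophage and monocyte markers had a lowest, median and highest value of 46.0, 137 and 616 CPM in activated, 37.8, 90.8 and 116 CPM in tolerized and 8.10, 140.0 and 397 CPM in inflamed libraries, against 623, 1543 and 1562 CPM in naive libraries. It was highest among antigen-exposed libraries in activated 1 and inflamed 1. A sum of 10 erythroid markers, in which paired haemoglobin genes with nearly identical values both count, was 40.1 to 295 CPM in activated, 49.0 to 153 CPM in tolerized and 19.9 to 119.5 CPM in inflamed libraries, against 964 to 2319 CPM in naive libraries. A sum of 6 B cell markers was 148 to 367 CPM in antigen-exposed libraries, against 767 to 1169 CPM in naive libraries. For 5 dendritic cell markers it was 1.61 to 36.65 CPM, against 13.3 to 30.9 CPM, and Cd4 stood at 3.15 to 6.66 CPM, against 13.8 to 23.98 CPM. The 36.65 CPM was that of tolerized 3, where the dendritic marker Itgax alone had 35.9 CPM. The next highest exposed library for these markers, activated 1, had 9.72 CPM, below all naive libraries. No macrophage marker was at 0 in any library. The part of these cells in the carriers called lower than in naive cells was not tested. Tests used limma-trend on log2(CPM + 1) over 12499 genes, so a log2 difference understates the change of a gene near or below 1 CPM, and a gene was called at an adjusted p under 0.05.

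Antigen-exposed cells had fewer carriers higher and more carriers lower than naive cells, compared with all genes of the table. In activated against naive cells, 44 of 170 tested members were called higher (25.9%) and 77 lower (45.3%), against 35.3% higher and 35.3% lower among all 12499 genes. In tolerized against naive cells, 45 were higher (26.5%) and 79 lower (46.5%), against 37.4% and 35.9% of all genes. In inflamed against naive cells, 53 were higher (31.2%) and 74 lower (43.5%), against 36.9% and 35.5% of all genes. These 3 comparisons share the naive libraries, and no test of the list was made. The 170 include Slc2a4, Slc7a4, Slc30a10 and Slc22a4, which reached 10 reads in naive libraries alone. Any lower call of theirs was favoured by the choice of members. The median log2 difference of the members was -0.31, -0.35 and -0.28 in activated, tolerized and inflamed cells, against -0.04, -0.01 and -0.01 for all genes. In this bulk RNA, fewer cells of a type and less RNA per cell cannot be told apart. Scaled by library size alone, 35 members were higher and 98 lower in activated cells, which is 26.3% higher among those called in place of 36.4%, and 36 were higher and 93 lower in inflamed cells, 27.9% in place of 41.7%. With a filter at 5 CPM, 44 were higher and 54 lower in activated cells (44.9% higher among those called), 43 and 58 in tolerized cells (42.6%), and 48 and 55 in inflamed cells (46.6%). The shares of all genes given above hold for the main scaling and filter alone. How members compare with all genes under the other settings is not reported here. Summed over the members, the carriers took 6030 to 6711 CPM in antigen-exposed libraries, against 6564 to 7083 CPM in naive libraries, ranges that overlap. As a share of all reads, without the scaling factors, they took 0.584% to 0.649%, against 0.798% to 0.816%, without overlap.

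**Figure D1:**
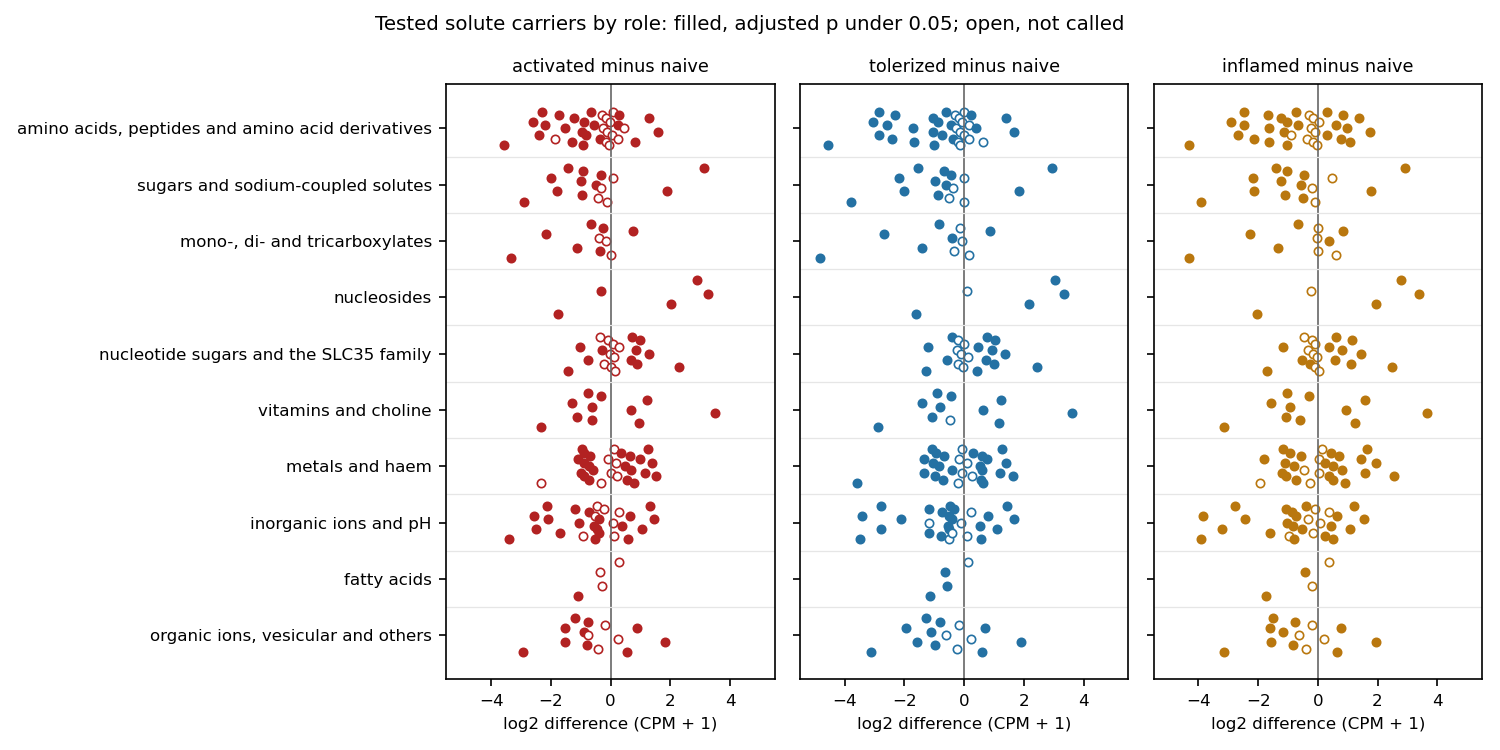
Log2 differences, on the log2(CPM + 1) scale, of 167 tested carriers in 10 role groups, from left to right for activated, tolerized and inflamed cells, each minus naive cells. Filled points had an adjusted p under 0.05 and open points did not; the 3 nucleoside carriers Slc29a1, Slc29a2 and Slc29a3 stand at the right, between 1.96 and 3.39, while in most other groups more points lie left of 0 than right of it.

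The nucleoside carriers split. Slc29a1 and Slc29a2, the equilibrative carriers that let nucleosides cross the cell surface down their gradient, and Slc29a3, their relative in lysosomes, all rose after antigen, whereas Slc28a2, the sodium-driven concentrative carrier for purine nucleosides, fell. Slc29a1 had 273, 309 and 199.9 CPM in activated, 279.7, 365 and 235 CPM in tolerized and 229, 216 and 286 CPM in inflamed libraries, against 27.1, 34.3 and 41.6 CPM in naive libraries. The exposed and naive libraries did not overlap, and the means were 7.59-, 8.53- and 7.09-fold that of naive cells in activated, tolerized and inflamed cells. Slc29a2 had 47.8, 40.5 and 32.4 CPM in activated, 50.9, 43.1 and 35.1 CPM in tolerized and 43.3, 37.3 and 51.2 CPM in inflamed libraries, against 3.74, 2.99 and 3.07 CPM in naive libraries. Low in naive cells, it stood 12.3-, 13.2- and 13.5-fold higher in activated, tolerized and inflamed cells. Its log2 differences were 3.26, 3.36 and 3.39 (SE 0.18 each), with adjusted p of 2.05e-07, 1.48e-07 and 1.31e-07. Slc29a3 had 221, 168 and 143 CPM in activated, 257, 177 and 163 CPM in tolerized and 193, 135 and 178 CPM in inflamed libraries, against 37.8, 48.1 and 40.8 CPM in naive libraries. In the opposite direction, Slc28a2 had 17.1, 40.1 and 55.9 CPM in activated, 17.8, 39.2 and 78.3 CPM in tolerized and 23.0, 41.3 and 22.4 CPM in inflamed libraries, against 129.8, 119 and 107 CPM in naive libraries. Its log2 differences were -1.78, -1.61 and -2.05 in activated, tolerized and inflamed cells (SE 0.51), and the tolerized call was lost without tolerized library 1, at an adjusted p of 0.065. The fifth gene of the group, Slc29a4, a monoamine carrier also of the SLC29 family, stayed under 1 CPM in every library. It was called lower in activated cells (-0.31; adjusted p 0.0392) and was not called in tolerized (0.11) or inflamed cells (-0.22). The activated call was lost without activated 1 or 3, inflamed 2 or any naive library, at adjusted p of 0.0551 to 0.117.

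Vitamin carriers also split. Of 11 tested, 4 rose and 7 fell in activated cells, 4 rose and 6 fell in tolerized cells, and 4 rose and 7 fell in inflamed cells, each against naive cells. The shares of all genes were 35.3%, 37.4% and 36.9% higher and 35.3%, 35.9% and 35.5% lower in these comparisons. The largest rise of any member on the log2 scale was that of Slc19a1, the reduced folate carrier, which supplies the carbon units used for making thymidine and purines. Slc19a1 had 259, 202 and 159 CPM in activated, 257, 226 and 182 CPM in tolerized and 240.3, 201 and 232 CPM in inflamed libraries, against 19.2, 16.5 and 15.5 CPM in naive libraries. Its log2 differences were 3.50, 3.61 and 3.64 in activated, tolerized and inflamed cells (SE 0.18 each; adjusted p of 1.28e-07, 8.76e-08 and 8.17e-08), a 12.1-fold mean in activated cells. Its relative Slc19a2, which carries thiamine, rose by 1.21, 1.22 and 1.58 on the log2 scale. The proton-coupled folate carrier Slc46a1 was low, at means of 3.63, 4.32 and 4.59 CPM in activated, tolerized and inflamed cells, against 1.34 CPM in naive cells, and rose as well. So did the riboflavin carrier Slc52a2, by 0.68, 0.62 and 0.94. Slc5a6, which takes up biotin and pantothenate and belongs by its family number to the sodium-coupled group, had 56.3, 49.6 and 41.7 CPM in activated, 52.0, 50.2 and 38.5 CPM in tolerized and 45.7, 38.6 and 51.3 CPM in inflamed libraries, against 12.6, 13.0 and 11.5 CPM in naive libraries. No exposed library overlapped the naive libraries for Slc19a1, Slc19a2, Slc52a2 or Slc5a6.

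Choline and ascorbate carriers fell. Slc44a2, a choline transporter-like protein and the vitamin-group member with the highest level per kilobase over all libraries, had 144, 255 and 307 CPM in activated, 167, 214 and 247 CPM in tolerized and 247, 295 and 254 CPM in inflamed libraries, against 576, 566 and 519 CPM in naive libraries. The lowest exposed library was activated 1 and no exposed library reached the naive range. Its log2 differences were -1.30, -1.42 and -1.06 in activated, tolerized and inflamed cells (SE 0.24). Slc44a1, its relative, fell too, at means of 7.79, 6.59 and 5.47 CPM in activated, tolerized and inflamed cells, against 12.3 CPM in naive cells. Slc23a1, a sodium-ascorbate cotransporter, had 25.9, 49.5 and 60.6 CPM in activated, 24.0, 57.5 and 62.4 CPM in tolerized and 20.1, 44.4 and 33.5 CPM in inflamed libraries, against 100.2, 99.1 and 86.5 CPM in naive libraries. It was called lower in all 3 comparisons with naive cells. The activated and tolerized calls were lost without single libraries, for instance without activated 1 (adjusted p 0.12), without naive 1 (adjusted p 0.0629 for activated and 0.0717 for tolerized cells) or without tolerized 1 (adjusted p 0.136). The inflamed call was kept whichever single library was left out. Slc46a3, a lysosomal carrier, had 3.02, 3.33 and 5.19 CPM in activated, 0.532, 1.81 and 6.72 CPM in tolerized and 1.41, 3.52 and 0.844 CPM in inflamed libraries, against 19.5, 25.1 and 24.6 CPM in naive libraries, and no exposed library reached the naive range.

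**Figure D2:**
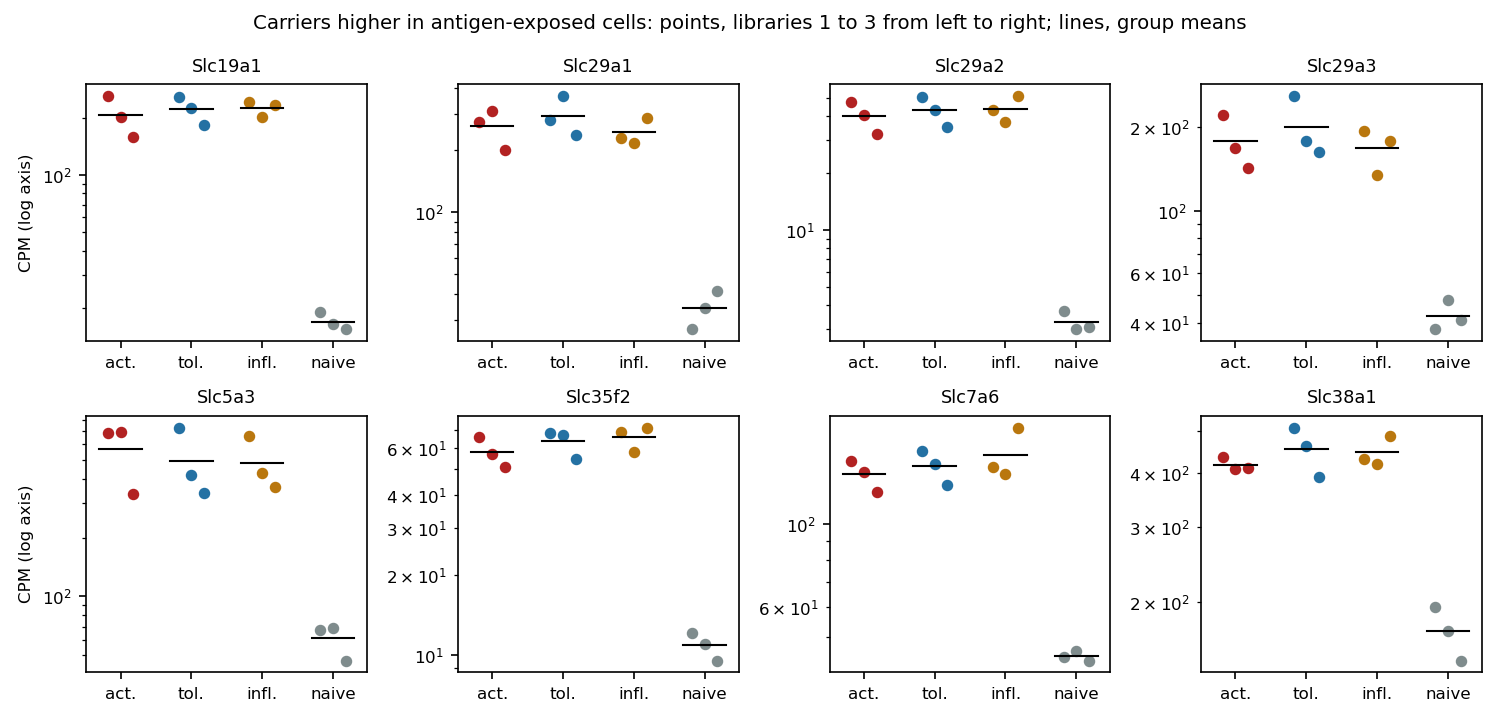
CPM on log axes of 8 carriers that were higher in antigen-exposed than in naive cells. Points are libraries 1 to 3 of activated, tolerized, inflamed and naive cells, and lines are group means; in each panel the 9 exposed libraries lie above the 3 naive ones, for Slc19a1 at 206, 222 and 224 against 17.1 CPM in the means.

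Among sugar and sodium-coupled carriers, 2 of 15 rose, Slc5a3 and Slc5a6, and 9, 9 and 10 fell in activated, tolerized and inflamed cells against naive cells. Among all genes 35.3%, 37.4% and 36.9% were higher and 35.3%, 35.9% and 35.5% lower. Slc5a3, the sodium-driven importer of the osmolyte and lipid precursor myo-inositol, had 682, 693 and 333 CPM in activated, 729, 417 and 339 CPM in tolerized and 659, 430.0 and 361 CPM in inflamed libraries, against 67.7, 69.2 and 46.9 CPM in naive libraries. The libraries of a group were uneven, with a highest value 2.08 times the lowest in activated cells, and even the lowest exposed library lay far above the naive range. Its log2 differences were 3.14, 2.94 and 2.93 (SE 0.35), with adjusted p of 2.17e-05, 3.14e-05 and 3.11e-05. Slc50a1, the mammalian relative of plant sugar exporters, had the highest level per kilobase of this group over all libraries, at 35.6, 35.6 and 31.9 CPM per kilobase in activated, tolerized and inflamed cells, against 70.1 in naive cells. Slc37a1, a sugar phosphate exchanger of the endoplasmic reticulum, had 19.7, 27.2 and 33.8 CPM in activated, 20.7, 25.4 and 27.5 CPM in tolerized and 27.4, 31.0 and 23.2 CPM in inflamed libraries, against 72.4, 73.0 and 72.5 CPM in naive libraries. All 9 exposed libraries lay below the naive ones, with log2 differences of -1.43, -1.54 and -1.39. Slc2a9, a urate carrier of the glucose transporter family, averaged 8.09, 7.85 and 6.59 CPM in activated, tolerized and inflamed cells, against 31.3 CPM in naive cells, and also fell. The lysosomal Slc2a6 was uneven, at 4.40, 1.34 and 0.0993 CPM in inflamed libraries, against 0.348, 0.812 and 1.08 CPM in naive libraries, and was not called in any comparison.

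Of 33 tested carriers of amino acids, peptides and their derivatives, 5 rose and 16 fell in activated cells, 4 rose and 17 fell in tolerized cells, and 9 rose and 15 fell in inflamed cells, all against naive cells. The shares of all genes were 35.3%, 37.4% and 36.9% higher and 35.3%, 35.9% and 35.5% lower. The carriers that rose at high levels take up glutamine and basic or neutral amino acids. Slc38a1, a sodium-coupled glutamine transporter, had 435, 409 and 409.7 CPM in activated, 510.0, 463 and 392 CPM in tolerized and 431, 421 and 488 CPM in inflamed libraries, against 195, 172 and 146 CPM in naive libraries. Slc7a6, which pairs with the heavy chain Slc3a2 to exchange basic for neutral amino acids, had 147, 137 and 122 CPM in activated, 156, 144 and 127 CPM in tolerized and 141, 136 and 180.3 CPM in inflamed libraries, against 44.1, 45.9 and 43.2 CPM in naive libraries. Both sets of naive libraries lay below all exposed libraries, with log2 differences of 1.29, 1.41 and 1.39 for Slc38a1 (SE 0.12) and 1.58, 1.65 and 1.75 for Slc7a6 (SE 0.12). Slc1a4, a neutral amino acid exchanger, was called higher in activated and inflamed cells, at log2 differences of 0.83 and 0.85. In tolerized cells its difference was 0.64 (adjusted p 0.0559); between tolerized and activated cells it was not called. Without naive library 3 its activated and inflamed calls were lost (adjusted p 0.0795 and 0.0695), as was the inflamed call without inflamed library 3 (adjusted p 0.0614). Small rises of Slc38a10 (0.23, 0.23 and 0.31) and of the taurine carrier Slc6a6 (0.29, 0.40 and 0.30) depended on the scaling: by library size alone Slc38a10 fell below 0 in all 3 comparisons and Slc6a6 in inflamed cells. The Slc38a10 calls in activated and tolerized cells were also lost without naive 3 (adjusted p 0.0642 and 0.0665). The Slc6a6 call in activated cells was lost without activated 2, naive 1 or naive 3 (adjusted p 0.0582, 0.0728 and 0.0781). Its inflamed call was lost without inflamed 3, naive 1 or naive 3 (adjusted p 0.0563, 0.0614 and 0.0655).

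The amino acid carriers that fell included several with broad or epithelial roles. Slc6a19, known from gut and kidney as the main carrier of neutral amino acids, had 2.88, 23.7 and 44.5 CPM in activated, 2.96, 6.54 and 16.6 CPM in tolerized and 4.31, 34.3 and 3.87 CPM in inflamed libraries, against 210.3, 189 and 178 CPM in naive libraries. The exposed libraries were uneven and none reached the naive range. The log2 differences were -3.56, -4.58 and -4.31 (SE 0.95), and the activated value was -2.49 without activated 1 and -4.30 without activated 3. The inflamed value was -5.24 without inflamed 2. Slc43a2, a carrier of large neutral amino acids, averaged 44.5, 35.1 and 37.7 CPM in activated, tolerized and inflamed cells, against 199 CPM in naive cells. Its relative Slc43a1 was low and fell, with log2 differences of -0.94, -0.997 and -1.14. Slc15a2, a peptide importer, had 1.26, 0.693 and 0.131 CPM in activated, 0.418, 0.536 and 0.175 CPM in tolerized and 0.428, 0.487 and 0.0497 CPM in inflamed libraries, against 5.39, 11.3 and 11.2 CPM in naive libraries. At the lysosome, Slc38a9, the arginine sensor that acts on mTORC1, had 13.3, 27.4 and 28.8 CPM in activated, 14.8, 21.5 and 24.4 CPM in tolerized and 17.9, 22.0 and 19.7 CPM in inflamed libraries, against 42.6, 39.1 and 43.7 CPM in naive libraries, and the amino acid exporter Slc36a1 averaged 30.1, 21.5 and 22.1 CPM in activated, tolerized and inflamed cells, against 70.6 CPM in naive cells. Both fell in all 3 comparisons, while Slc36a4 differed by -0.15, -0.19 and -0.35 and was not called.

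Of 19 other genes of amino acid sensing at the lysosome, 6 were higher and 6, 7 and 7 lower in activated, tolerized and inflamed cells against naive cells. These shares are near those of all genes, 35.3% to 37.4% higher and 35.3% to 35.9% lower. The list had medians of -0.12, -0.18 and -0.04. Fnip2, a partner of folliculin, rose by 2.18, 2.23 and 2.65 and Rraga, a Rag GTPase, by 0.76, 0.82 and 1.07. Rragd, another Rag GTPase, had 0.324, 1.55 and 3.49 CPM in activated, 0.38, 0.804 and 0.349 CPM in tolerized and 0.887, 0.896 and 1.42 CPM in inflamed libraries, against 7.11, 7.42 and 6.85 CPM in naive libraries. Sesn1, a sestrin, which senses leucine, fell, with log2 differences of -2.01, -2.05 and -2.39, and Mtor itself differed by -0.06, -0.14 and -0.04 and was not called. Of the 10 transporters left out of the members, 6, 6 and 7 were higher and 2, 2 and 3 lower in activated, tolerized and inflamed cells.

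Of 27 tested ion and pH carriers, 6, 6 and 7 were higher and 14, 15 and 14 lower in activated, tolerized and inflamed cells against naive cells. Among all genes 35.3%, 37.4% and 36.9% were higher and 35.3%, 35.9% and 35.5% lower. Slc12a7, a potassium-chloride cotransporter, which lets cells lose salt and water, had 77.4, 174 and 333 CPM in activated, 74.9, 72.7 and 122 CPM in tolerized and 86.4, 190.2 and 72.7 CPM in inflamed libraries, against 1050.0, 963 and 954 CPM in naive libraries. All exposed libraries lay below the naive ones. In naive cells it was the ion-group member with the highest level per kilobase, at 193 CPM per kilobase, and its means were 5.08-, 11.002- and 8.49-fold lower in activated, tolerized and inflamed cells. It fell past the replicate spread, with log2 differences of -2.58, -3.49 and -3.21 (SE 0.48). Slc12a4, a relative, rose, at means of 31.9, 36.3 and 33.4 CPM in activated, tolerized and inflamed cells, against 24.5 CPM in naive cells. Slc12a2, the sodium-potassium-chloride importer that works against these cotransporters, differed by 0.29, 0.21 and 0.38 (95% intervals -0.18 to 0.77, -0.26 to 0.69 and -0.10 to 0.85) and was not called.

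Carriers of sodium, protons and bicarbonate also went different ways. Slc4a7, a sodium-bicarbonate importer that raises cell pH, had 112, 94.9 and 110.2 CPM in activated, 121, 114 and 105 CPM in tolerized and 81.3, 86.0 and 100.5 CPM in inflamed libraries, against 40.2, 44.2 and 40.6 CPM in naive libraries. It was above the naive range in all 9 exposed libraries, with log2 differences of 1.32, 1.42 and 1.08 (SE 0.10). Slc9a9, an endosomal sodium-proton exchanger, fell. It had 4.36, 9.46 and 13.9 CPM in activated, 3.04, 6.27 and 14.4 CPM in tolerized and 1.13, 6.19 and 1.79 CPM in inflamed libraries, against 49.3, 57.8 and 48.1 CPM in naive libraries. Slc9a5, another exchanger, rose, at means of 11.7, 13.8 and 12.6 CPM in activated, tolerized and inflamed cells, against 3.69 CPM in naive cells. Slc9a8, found in the Golgi, was called in inflamed cells alone (0.25), and that small rise reversed when libraries were scaled by size alone. It was also lost without inflamed library 1, inflamed library 3 or naive library 3 (adjusted p 0.0513, 0.0541 and 0.0732).

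The phosphate importers moved in opposite directions. Slc20a1 had 149, 171 and 184 CPM in activated, 157, 155 and 158 CPM in tolerized and 143, 148 and 160.2 CPM in inflamed libraries, against 219.8, 206 and 226 CPM in naive libraries, and its relative Slc20a2 averaged 16.1, 17.7 and 14.2 CPM in activated, tolerized and inflamed cells, against 9.71 CPM in naive cells. Slc20a1 fell and Slc20a2 rose in all 3 comparisons, and Slc20a1 had the higher level per kilobase in every group. Partners of these carriers were also measured. Of 10 tested subunits and partners of the sodium pump and of transporters, 2 were higher, and 8, 7 and 6 lower in activated, tolerized and inflamed cells. The shares of all genes were 35.3%, 37.4% and 36.9% higher and 35.3%, 35.9% and 35.5% lower. Bsg, the chaperone of lactate carriers, rose by 1.53, 1.65 and 1.38, whereas the pump's subunit Atp1b1 had log2 differences of -1.29, -1.66 and -1.62. In the WNK pathway, whose kinases switch chloride cotransporters, 4 of 10 were higher and 4 lower in each comparison, near the shares of all genes. The kinase Stk39 rose by 1.15, 1.49 and 1.29, and the volume-regulated channel subunits Lrrc8a and Lrrc8c fell, with log2 differences of -1.21, -1.18 and -1.53 and -1.15, -1.09 and -1.20. Another subunit, Lrrc8d, rose by 0.33, 0.49 and 0.37.

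**Figure D3:**
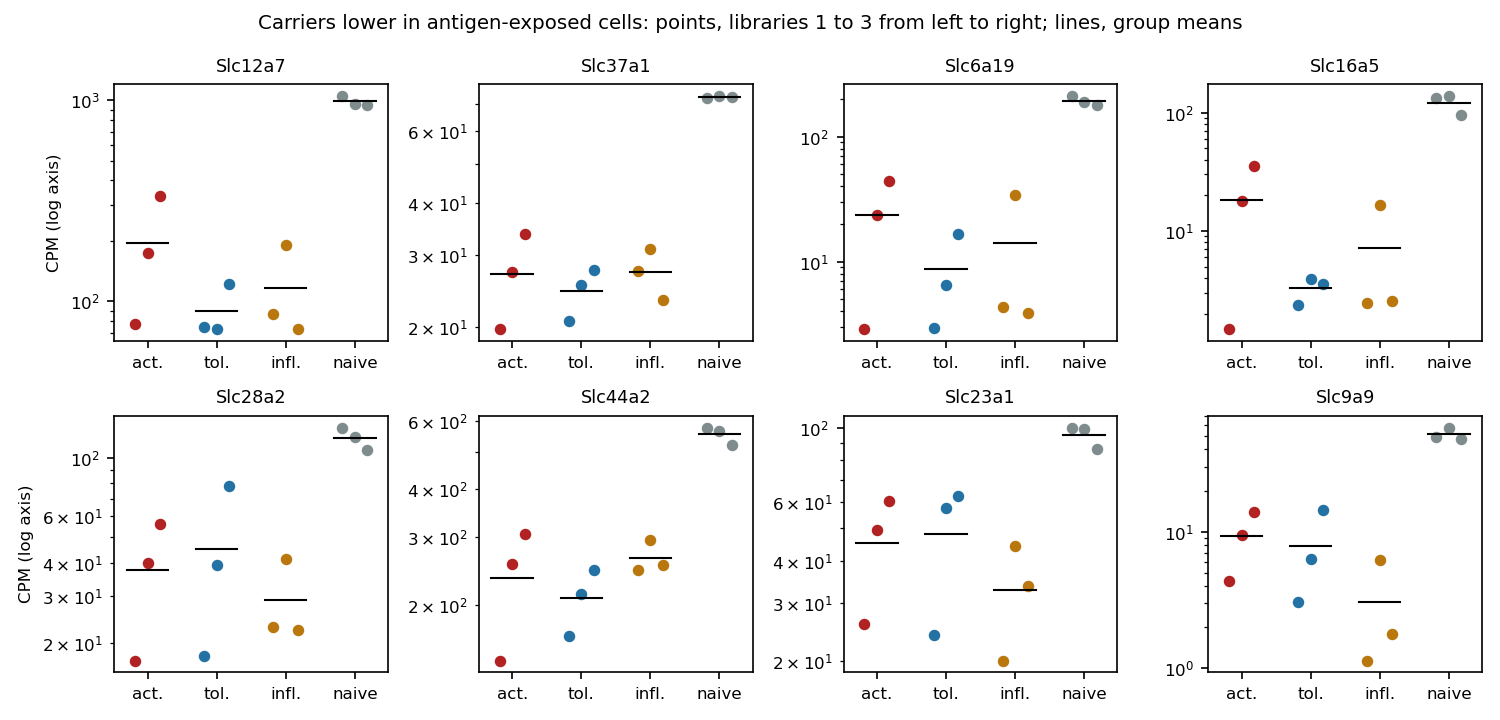
CPM on log axes of 8 carriers that were lower in antigen-exposed than in naive cells, with libraries 1 to 3 as points and group means as lines. Naive libraries lie close together while exposed libraries spread, for Slc12a7 at 77.4, 174 and 333 CPM in activated libraries, against 1050.0, 963 and 954 CPM in naive libraries.

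Carriers that fell were spread more widely between replicates than those that rose. Among members called against naive cells whose mean in the exposed group was 5 CPM or more, the median ratio of the highest to the lowest replicate was 1.71 for 38 lower and 1.22 for 43 higher members in activated cells. It was 1.34 for 40 lower and 1.25 for 43 higher members in tolerized cells, and 1.36 for 35 lower and 1.23 for 47 higher members in inflamed cells. The lower members followed the library: in 31 of 38 activated library 3 was the highest and in 34 activated library 1 the lowest. In tolerized cells library 3 was the highest in 30 of 40. In inflamed cells library 2 was the highest in 23 of 35. The higher members followed the library too. For them library 1 was the highest in 30 of 43 in activated and 32 of 43 in tolerized cells. In inflamed cells library 3 was the highest in 33 of 47. Among activated libraries the macrophage marker sum was highest in library 1 and lowest in library 3. The T cell marker sum ran the other way, at 2586, 3306 and 3558 CPM in activated libraries 1 to 3. It was highest in library 3 of tolerized cells (2878, 2865 and 3383 CPM) and in library 2 of inflamed cells (3652, 3889 and 3764 CPM), the libraries in which most lower members were highest. The part of either in this was not tested.

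Of 28 tested metal and haem carriers, 11, 11 and 13 were higher and 10, 11 and 9 lower in activated, tolerized and inflamed cells against naive cells, beside 35.3%, 37.4% and 36.9% higher and 35.3%, 35.9% and 35.5% lower among all genes. The SLC39 family brings zinc into the cytosol. Of its 13 tested members, 6, 6 and 8 were higher and 2, 2 and 1 lower. Those lower were Slc39a13, at -0.96, -0.97 and -0.93 on the log2 scale, and Slc39a8, at -0.68, -0.40 and -0.28, whose inflamed value was not called (adjusted p 0.0723). The tolerized call of Slc39a8 was lost without tolerized 2 or naive 3 (adjusted p 0.0569 and 0.0557). Slc39a14 had 98.8, 82.5 and 75.2 CPM in activated, 106, 87.9 and 68.6 CPM in tolerized and 103, 91.8 and 112 CPM in inflamed libraries, against 34.7, 33.3 and 27.5 CPM in naive libraries. Slc39a6 had 76.9, 58.0 and 56.5 CPM in activated, 74.8, 62.9 and 59.7 CPM in tolerized and 82.0, 69.5 and 83.7 CPM in inflamed libraries, against 31.1, 28.4 and 25.1 CPM in naive libraries. For both genes the exposed libraries stood clear of the naive ones, with log2 differences of 1.39, 1.41 and 1.66 for Slc39a14 (SE 0.16) and 1.14, 1.19 and 1.44 for Slc39a6 (SE 0.14). Slc39a7, which releases zinc from the endoplasmic reticulum, had the highest level per kilobase of the metal carriers, at 86.7, 82.3 and 97.6 CPM per kilobase in activated, tolerized and inflamed cells, against 55.2 in naive cells. Slc30a5, which loads zinc into the secretory pathway, rose by 0.68, 0.60 and 0.72. The copper importer Slc31a1 averaged 52.7, 56.9 and 54.7 CPM in activated, tolerized and inflamed cells, against 17.6 CPM in naive cells, and rose. The iron importer Slc11a2 fell, at 65.2, 56.2 and 48.9 against 106 CPM.

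The members that set inflamed cells apart from both other exposed groups carry zinc and magnesium. Slc39a10, a surface zinc importer, had 52.4, 45.3 and 68.0 CPM in activated, 55.4, 44.8 and 38.3 CPM in tolerized and 185, 175 and 132 CPM in inflamed libraries, against 29.1, 27.6 and 23.8 CPM in naive libraries. All 3 inflamed libraries were above all others, and the activated and tolerized libraries were above the naive ones. Slc30a1, the exporter that lets zinc out across the cell surface, had 19.1, 18.4 and 18.6 CPM in activated, 15.7, 16.4 and 16.7 CPM in tolerized and 7.25, 10.4 and 11.1 CPM in inflamed libraries, against 37.1, 36.8 and 32.3 CPM in naive libraries. It ran the other way, with inflamed libraries lowest and naive libraries highest, and without overlap between inflamed and any other group. Slc41a1, a magnesium carrier, had 133, 105 and 104 CPM in activated, 130.2, 112 and 107 CPM in tolerized and 196, 154 and 206 CPM in inflamed libraries, against 51.4, 47.2 and 42.8 CPM in naive libraries. Here too the inflamed libraries were above all activated, tolerized and naive libraries.

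In inflamed against activated cells, 2 of 170 members were called higher and 1 lower (1.18% and 0.588%), against 1.54% and 0.384% of all genes, and 19 members had an unadjusted p under 0.05. Slc39a10 was 2.97-fold higher, with a log2 difference of 1.56 ± 0.18 (SE) and an adjusted p of 0.00157. Slc41a1 was 1.63-fold higher (0.70 ± 0.14; adjusted p 0.0267) and Slc30a1 1.95-fold lower (-0.92 ± 0.14; adjusted p 0.00787). In inflamed against tolerized cells, 2 were higher and 3 lower (1.18% and 1.76%), against 1.66% and 1.12% of all genes, and 22 had an unadjusted p under 0.05. Slc39a10 was 3.55-fold higher (1.80 ± 0.18; adjusted p 5.51e-04), Slc41a1 1.60-fold higher (0.66; adjusted p 0.0289) and Slc30a1 1.70-fold lower (-0.72; adjusted p 0.0213). These shares are near those of all genes, so a count of this size is not a result about carriers as a group. The comparisons share the inflamed libraries.

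The firmness of these calls differed. Slc39a10 kept both calls whichever single library was left out, and Slc30a1 its call against activated cells. With replicate numbers as a block over all 12 libraries 4 members were called against activated cells, and with the block in the 2 groups alone, where 6 libraries set the spread, 0 were. Slc39a10 then had an adjusted p of 0.0734 and Slc30a1 of 0.155. The count of 5 against tolerized cells was 1 without tolerized 2 or tolerized 3, and 3 without inflamed 1, inflamed 2 or naive 2. The Slc30a1 call against tolerized cells was lost without tolerized 2 (adjusted p 0.0971) or tolerized 3 (adjusted p 0.0607). The Slc41a1 call against activated cells was lost without activated 2 or 3, inflamed 1 or 3, or naive 2 (adjusted p 0.136, 0.0963, 0.128, 0.07 and 0.052). Against tolerized cells it was lost without tolerized 2 or 3, inflamed 1 or 3, or naive 2 (adjusted p 0.129, 0.0843, 0.115, 0.062 and 0.0535). In inflamed 3, whose macrophage marker sum was the lowest of all libraries at 8.10 CPM, Slc39a10 stood at 132 CPM, above every activated, tolerized and naive library. A sum of 7 neutrophil markers was 193, 87.1 and 10.6 CPM in inflamed libraries, against 1.07 to 11.6 CPM in activated and 1.63 to 9.78 CPM in tolerized libraries, and 14.6 to 19.4 CPM in naive libraries. The inflamed libraries had the same order for both marker sums as for Slc39a10, and the part of either in the Slc39a10 difference was not tested.

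**Figure D4:**
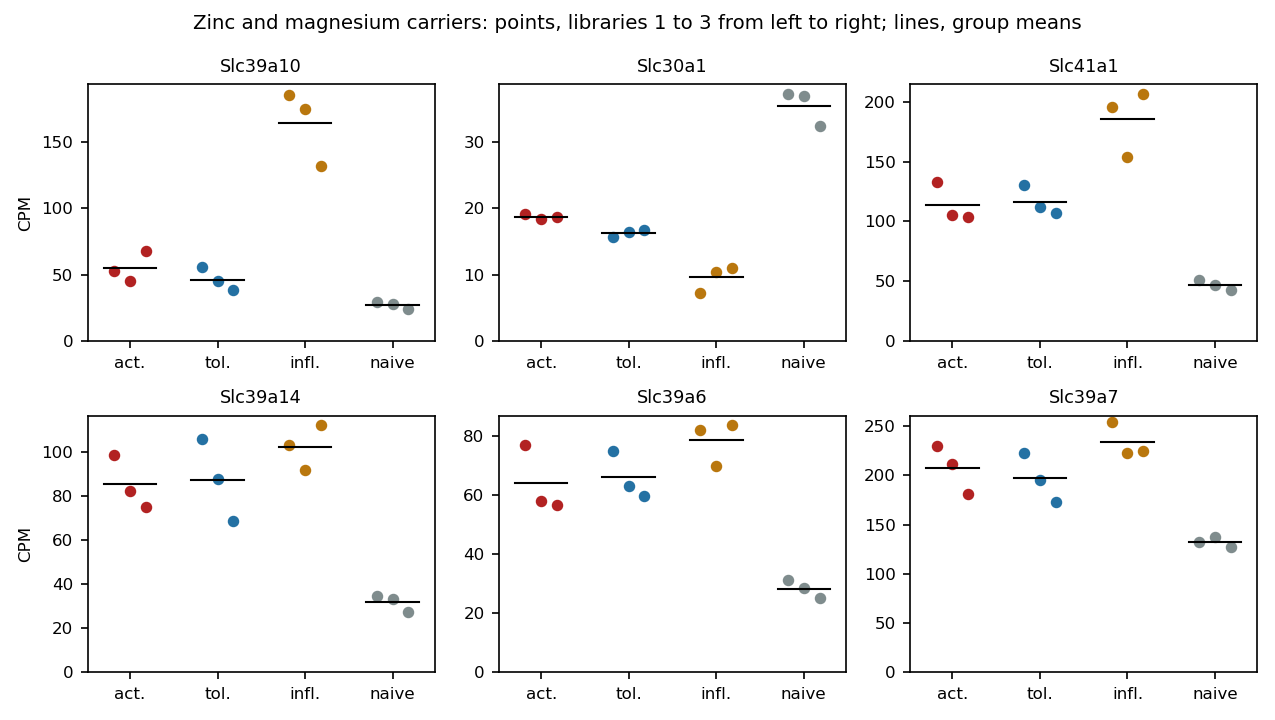
CPM, on axes from 0, of 6 zinc and magnesium carriers by library, with libraries 1 to 3 as points and group means as lines. Inflamed libraries are the highest for Slc39a10 and Slc41a1 and the lowest for Slc30a1, whereas for Slc39a14, Slc39a6 and Slc39a7 the inflamed points reach into the range of activated or tolerized cells.

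Zinc-responsive promoters often carry metal response elements, the letters to which the zinc sensor MTF1 binds. The promoters of the 3 metal carriers that set inflamed cells apart are shown for that reason, and that of Slc7a11, the cystine importer, for a pair of CARE letters, the element bound by ATF4 in amino acid shortage. Sequences are RefSeq promoters of GRCm38.p6, from 250 bases before to 50 after the start, 5′ to 3′, with matches in capitals. The letters searched on both strands were TGCACNC or TGCGCNC for the metal response element core and TGATGCAA for CARE.
Slc39a10 (chr1:46853569-46853868, minus strand, no match): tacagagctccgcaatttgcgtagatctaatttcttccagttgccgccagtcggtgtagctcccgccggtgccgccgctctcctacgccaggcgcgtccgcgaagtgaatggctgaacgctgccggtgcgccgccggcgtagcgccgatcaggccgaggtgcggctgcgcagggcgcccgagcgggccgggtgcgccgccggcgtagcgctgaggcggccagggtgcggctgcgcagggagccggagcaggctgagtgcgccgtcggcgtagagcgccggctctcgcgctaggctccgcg
Slc30a1 (chr1:191906531-191906830, plus strand): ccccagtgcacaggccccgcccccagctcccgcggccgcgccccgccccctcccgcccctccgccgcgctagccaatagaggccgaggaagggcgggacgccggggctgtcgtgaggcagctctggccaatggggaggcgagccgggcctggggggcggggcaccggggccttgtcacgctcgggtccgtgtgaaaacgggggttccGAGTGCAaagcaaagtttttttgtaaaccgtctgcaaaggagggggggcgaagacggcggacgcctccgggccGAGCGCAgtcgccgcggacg
Slc41a1 (chr1:131827762-131828061, plus strand): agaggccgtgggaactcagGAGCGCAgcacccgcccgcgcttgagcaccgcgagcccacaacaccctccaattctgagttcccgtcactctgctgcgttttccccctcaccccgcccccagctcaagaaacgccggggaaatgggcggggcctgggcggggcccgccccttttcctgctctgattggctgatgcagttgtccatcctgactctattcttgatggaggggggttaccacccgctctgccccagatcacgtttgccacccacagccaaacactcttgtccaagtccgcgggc
Slc7a11 (chr3:50443564-50443863, minus strand): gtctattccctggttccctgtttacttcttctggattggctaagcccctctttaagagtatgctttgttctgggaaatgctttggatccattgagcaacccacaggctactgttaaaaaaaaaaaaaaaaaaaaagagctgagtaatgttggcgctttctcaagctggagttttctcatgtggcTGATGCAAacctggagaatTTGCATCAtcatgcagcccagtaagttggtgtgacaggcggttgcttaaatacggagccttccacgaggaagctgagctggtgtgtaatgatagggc

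The Slc30a1 promoter held 2 metal response element cores, 1 beginning 43 bases before the start and 1 at base 31 after it, and that of Slc41a1 held 1, beginning 231 bases before the start. Neither of the 2 Slc39a10 promoters in the table had these letters in its window. The table matched 130 of 174 members with 174 promoters. The metal response element core was in 37.4% of them, against 25.7% of all 32851 promoters. CARE was in 5 promoters, 2.87% against 0.895%, of which 2 belong to Slc7a7 and 1 each to Slc7a11, Slc1a4 and Slc50a1. The E-box CACGTG was in 13.2% against 7.15%, and the antioxidant response element core TGACNNNGC in 17.8% against 12.4%. Promoters of 1 gene overlap in sequence, and a match is a description of letters, not a site. No motif search beyond these 4 was made. Among the zinc buffering and sensing genes, Mtf1, which encodes the sensor, rose by 1.28, 1.28 and 1.31 against naive cells and differed by 0.04 and 0.03 in inflamed against activated and tolerized cells. The metallothionein Mt1 stayed at 1.25, 0.643 and 0.844 CPM in inflamed libraries, against 1.51, 0.213 and 0.244 CPM in activated and 0.57, 0.402 and 0.64 CPM in tolerized libraries.

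Slc35d3, an orphan member of the nucleotide sugar family, and Slc43a3, a purine base carrier in human cells, were the other members called lower in inflamed than in tolerized cells. Both were low in all libraries. Slc43a3 had 0.948, 0.993 and 0.77 CPM in inflamed libraries, against 1.82, 5.04 and 5.47 CPM in tolerized libraries (adjusted p 0.0449). Slc35d3 had 0.0612, 0 and 0.0993 CPM in inflamed libraries, against 0.608, 0.446 and 0.524 CPM in tolerized libraries (adjusted p 0.0204). Neither call held when tolerized library 2 was left out (adjusted p 0.185 for Slc43a3 and 0.0599 for Slc35d3). Members with the next smallest p were not called in the fit to all libraries. The glycine carrier Slc6a9 had 6.09, 4.79 and 9.63 CPM in inflamed libraries, against 2.81, 2.18 and 3.43 CPM in activated libraries, without overlap (adjusted p 0.0639). With a replicate block over all 12 libraries it was called (1.01; adjusted p 0.0402). Slc4a11 had 0.489, 0.701 and 0.397 CPM in inflamed libraries, against 0.072, 0.0799 and 0.206 CPM in activated libraries (adjusted p 0.0744). Slc16a6, of the monocarboxylate family, had 40.1, 38.6 and 35.8 CPM in inflamed libraries, against 32.4, 30.0 and 26.1 CPM in tolerized libraries (adjusted p 0.106). Slc7a11 had 4.19, 1.30 and 0.323 CPM in inflamed libraries, against 0.36, 0 and 0 CPM in activated and 0.076, 0.0223 and 0 CPM in tolerized libraries (adjusted p 0.217 and 0.111). Without inflamed 3 it was called higher than in activated cells (1.65; adjusted p 0.0171) and tolerized cells (1.75; adjusted p 0.00986). Its inflamed libraries were in the same order as the neutrophil marker sum and the macrophage marker sum. Their part in it was not tested.

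In tolerized against activated cells no member was called, and none of all 12499 genes was, so the background is 0% in each direction. By limma, 4 members and 531 genes had an unadjusted p under 0.05, and limma-voom called no member either. The smallest adjusted p of a member was 0.961, for Slc29a4, at 0.228, 0.312 and 0.64 CPM in tolerized libraries, against 0, 0.107 and 0 CPM in activated libraries. A difference between tolerized and activated cells was thus not detectable for any carrier with these libraries. That does not show equal levels: the 95% interval of a member's log2 difference had a median half-width of 0.37, and it lay within a 2-fold change either way for 143 of 170 members. Of the members with large falls after antigen, Slc16a5 had the lowest log2 difference. Its means were 3.29 CPM in the tolerized, against 18.2 CPM in the activated group, and the log2 difference was -1.49 (95% interval -3.42 to 0.44). Slc12a7 differed by -0.91 (95% interval -1.97 to 0.15).

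The remaining groups were led by few genes. Of 10 tested carriers of mono-, di- and tricarboxylates, 1, 1 and 2 were higher and 6, 5 and 4 lower in activated, tolerized and inflamed cells against naive cells. Among all genes 35.3%, 37.4% and 36.9% were higher and 35.3%, 35.9% and 35.5% lower. Slc16a5, of the monocarboxylate family, had 1.48, 17.8 and 35.2 CPM in activated, 2.36, 3.93 and 3.58 CPM in tolerized and 2.45, 16.6 and 2.58 CPM in inflamed libraries, against 132, 138 and 94.7 CPM in naive libraries. The naive libraries were well above all others, with log2 differences of -3.34, -4.84 and -4.33 (SE 0.87), and the activated value was -2.18 without activated 1. It was -4.15 without activated 3, and the inflamed value -5.10 without inflamed 2. Slc16a10, which carries aromatic amino acids, had 33.4, 22.8 and 21.0 CPM in activated, 32.7, 22.1 and 22.7 CPM in tolerized and 47.1, 40.0 and 43.3 CPM in inflamed libraries, against 18.9, 34.4 and 35.2 CPM in naive libraries. Its inflamed libraries were above all naive ones and the difference missed the threshold (0.59; adjusted p 0.0527). Of 4 fatty acid carriers, 1, 3 and 2 were lower and none higher, beside the same shares of all genes. Slc27a1, which brings in long-chain fatty acids, averaged 3.40, 3.14 and 1.71 CPM in activated, tolerized and inflamed cells, against 7.94 CPM in naive cells.

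The SLC35 family, whose members bring nucleotide sugars into the endoplasmic reticulum and Golgi for building glycans, had 20 members tested. Of these, 7, 9 and 8 were higher in activated, tolerized and inflamed cells against naive cells, near the shares of all genes (35.3%, 37.4% and 36.9%), and 4 were lower in each, against 35.3%, 35.9% and 35.5% of all genes. Slc35f2, an SLC35 member at the cell surface, had 65.9, 56.9 and 50.7 CPM in activated, 68.2, 67.2 and 54.7 CPM in tolerized and 68.5, 57.8 and 71.4 CPM in inflamed libraries, against 12.2, 11.03 and 9.55 CPM in naive libraries. Slc35b1, which brings ATP into the endoplasmic reticulum in human cells, had 50.9, 51.1 and 44.0 CPM in activated, 50.5, 50.8 and 49.7 CPM in tolerized and 52.0, 52.6 and 58.8 CPM in inflamed libraries, against 24.8, 25.3 and 22.6 CPM in naive libraries. The exposed libraries were about level with each other and all above the naive ones, with log2 differences of 2.30, 2.43 and 2.49 for Slc35f2 and 0.98, 1.03 and 1.14 for Slc35b1. Slc35a4 had the highest level per kilobase, at 72.5, 76.7 and 81.6 CPM per kilobase in activated, tolerized and inflamed cells, against 29.5 in naive cells. Slc35c2 rose by 0.88, 0.94 and 1.10. The carriers for CMP-sialic acid and UDP-N-acetylglucosamine, Slc35a1 and Slc35a3, rose by 0.69, 0.72 and 0.62 and by 0.84, 0.98 and 0.57. Slc35d2 fell, at means of 3.78, 4.49 and 2.93 CPM in activated, tolerized and inflamed cells, against 11.5 CPM in naive cells.

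Among 14 organic ion, vesicular and other carriers, 3 were higher and 7 lower in each of the 3 exposed groups against naive cells. The shares of all genes were 35.3%, 37.4% and 36.9% higher and 35.3%, 35.9% and 35.5% lower in activated, tolerized and inflamed cells. Slc10a3, of the bile acid carrier family, had 65.7, 53.7 and 44.9 CPM in activated, 64.7, 59.1 and 48.3 CPM in tolerized and 57.0, 57.6 and 62.5 CPM in inflamed libraries, against 16.4, 14.7 and 12.8 CPM in naive libraries. Slc17a9, which loads ATP into vesicles, had 19.2, 35.0 and 45.3 CPM in activated, 25.7, 28.8 and 37.9 CPM in tolerized and 30.2, 36.5 and 29.2 CPM in inflamed libraries, against 98.1, 94.2 and 85.1 CPM in naive libraries. The first lay above and the second below the naive range in every exposed library. Slc14a1, the urea carrier, had 1.48, 5.04 and 11.6 CPM in activated, 0.912, 5.09 and 9.90 CPM in tolerized and 2.97, 6.82 and 2.73 CPM in inflamed libraries, against 47.4, 42.2 and 37.9 CPM in naive libraries. Its log2 differences were -2.92, -3.11 and -3.15, and the activated and tolerized values were -2.29 and -2.40 without library 1 of the group. Slc33a1, which brings acetyl-CoA into the endoplasmic reticulum, differed by 0.25, 0.22 and 0.22 and was not called.

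Several members followed markers of other cells from library to library. Slc11a1, a metal exporter of phagosomes known from macrophages, had 21.6, 5.01 and 1.99 CPM in activated, 3.88, 2.39 and 0.873 CPM in tolerized and 44.7, 10.6 and 0.745 CPM in inflamed libraries, against 18.6, 49.6 and 52.4 CPM in naive libraries. Slc15a3, a lysosomal peptide carrier of the same cells, had 8.50, 1.52 and 0.45 CPM in activated, 1.94, 2.01 and 0.524 CPM in tolerized and 20.2, 6.06 and 0.819 CPM in inflamed libraries, against 5.87, 13.6 and 16.1 CPM in naive libraries. In both genes activated 1 and inflamed 1 were the highest of their groups and activated 3 and inflamed 3 the lowest, the order of the macrophage marker sum given above. In inflamed libraries the neutrophil marker sum had that order too, at 193, 87.1 and 10.6 CPM. The part of either was not tested. Slc11a1 was called in tolerized cells (-3.58; adjusted p 0.0106) and not in activated (-2.34; adjusted p 0.0686) or inflamed cells (-1.95; adjusted p 0.12). Without activated 1 the activated difference was -3.13 (adjusted p 0.03), and without inflamed 1 the inflamed difference was -3.06 (adjusted p 0.0172). Slc15a3 was called lower in tolerized cells (-2.33; adjusted p 0.0305) and not in activated (-1.88; adjusted p 0.0726) or inflamed cells (-0.89; adjusted p 0.373). It was called in activated cells without activated 1 (-2.64; adjusted p 0.0205), inflamed 1 or inflamed 3 (adjusted p 0.0417 and 0.0351). Without both activated 1 and inflamed 1 it was called in inflamed cells too (-1.72; adjusted p 0.0326). The tolerized call was lost without tolerized 1, tolerized 3, naive 2 or naive 3 (adjusted p 0.0515, 0.0886, 0.0791 and 0.0906).

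Slc7a7, a basic amino acid exchanger, and Slc45a3 had that order of libraries too in activated and inflamed cells. Slc7a7 had 8.25, 2.18 and 0.825 CPM in activated, 1.14, 2.30 and 1.05 CPM in tolerized and 8.10, 2.14 and 0.621 CPM in inflamed libraries, against 9.81, 25.3 and 27.4 CPM in naive libraries. Slc45a3 had 10.0, 3.01 and 0.675 CPM in activated, 2.17, 1.36 and 0.611 CPM in tolerized and 3.12, 1.19 and 0 CPM in inflamed libraries, against 15.01, 38.5 and 49.2 CPM in naive libraries. Both were called lower in all 3 comparisons with naive cells, with log2 differences of -2.41, -3.04 and -2.48 for Slc7a7 and -2.91, -3.79 and -3.93 for Slc45a3. Without activated 1 the activated values were -3.04 and -3.60. Without inflamed 1 that of Slc7a7 in inflamed cells was -3.15, and without activated 3 that of Slc45a3 in activated cells was -2.25. Slc4a1, the anion exchanger that is the main membrane protein of red cells, had 8.79, 4.24 and 1.95 CPM in activated, 3.61, 5.49 and 3.84 CPM in tolerized and 4.65, 5.72 and 0.646 CPM in inflamed libraries, against 40.7, 43.0 and 98.5 CPM in naive libraries. Naive 3 was the highest for it and for the erythroid marker sum. Its log2 differences were -3.41, -3.43 and -3.84 (SE 0.57), and the inflamed value was -3.19 without inflamed 3. What part macrophages, neutrophils and red cells had in these values was not tested. Slc48a1, a haem carrier of lysosomes, had 24.3, 21.1 and 18.2 CPM in activated, 20.8, 21.8 and 21.8 CPM in tolerized and 19.97, 18.1 and 17.7 CPM in inflamed libraries, against 25.7, 49.2 and 48.9 CPM in naive libraries, with naive 1 the lowest of the naive libraries as in the macrophage marker sum.

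**Figure D5:**
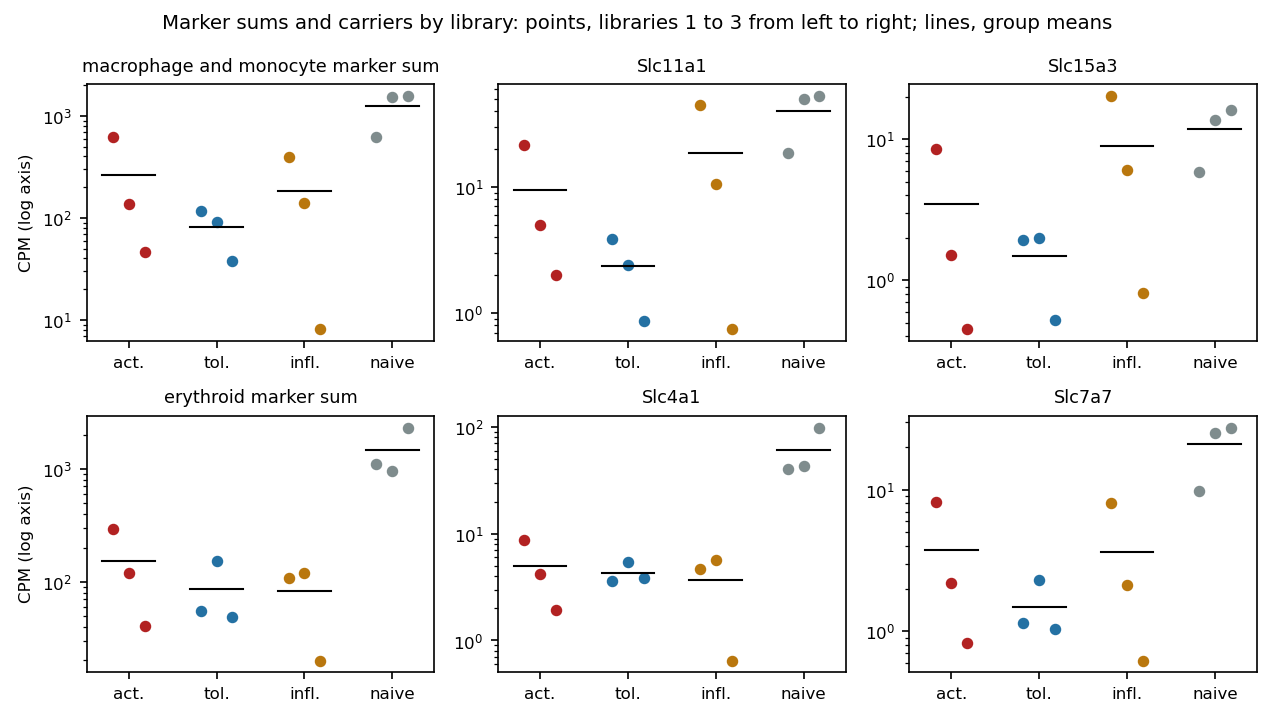
CPM on log axes of the summed macrophage and monocyte markers, the summed erythroid markers and 4 carriers, with libraries 1 to 3 as points and group means as lines. Slc11a1, Slc15a3 and Slc7a7 are highest in libraries 1 of activated and inflamed cells, as the macrophage marker sum is, and Slc4a1 is highest in naive library 3, as the erythroid sum is.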

How the data were processed

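RNA sequencing of sorted CD8 T cells gave 1 table of reads per gene in 12 libraries, 3 in each of 4 groups. The deposited values are read counts per gene, whole numbers written with commas as separators of 3 digits, not normalized by the authors as far as the values show. TopHat2, bedtools, DESeq and the builds mm10 and GRCm38 stand in the submitters' processing notes, with no versions. The kit's strand setting and the counting rule are not given in the sources used here, so reads of overlapping or antisense genes cannot be told apart. Even numbers made up 55.6% to 64.4% of the counts from 1 to 20 in the deposited table, and whether the mates of a read pair were counted singly is not given in the sources used here. The extraction text in the labels also names mouse embryonic fibroblasts, which the other labels do not. All 12 sample columns were matched to their samples by name, and 38 genes had 0 reads in all libraries.

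Counts were made into counts per M reads (CPM) with factors from own code for the trimmed mean of M (30% and 5% trimmed), computed over all genes, of 0.897 to 1.22. Genes were tested if they passed 0.258 CPM in 3 libraries and 15 reads in all, 12499 of 16353, and 170 of the 174 members. On log2(CPM + 1), 4 group means were fitted to all 12 libraries and compared by limma-trend (package version 3.58.1 under R 4.3.3), with two-sided p-values and Benjamini-Hochberg adjustment over all genes tested in each of 6 comparisons. The fit was also run on simulated reads, with the same replicate variation set for all genes. That run does not give error rates for these libraries, whose spread is uneven between genes. The members, role groups and gene lists were chosen with earlier results of these data known.

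In each comparison the text names the 8 largest rises and 8 largest falls among members past the threshold whose higher group averaged at least 5 CPM and whose groups did not overlap, the 6 smallest p-values in comparisons between exposed groups, the 3 highest levels per kilobase in each of 10 role groups, and fixed members of interest, 67 members in all, some of which are not reported here. Chosen after their values were seen were Slc19a2, Slc46a1, Slc52a2, Slc2a9, Slc43a2, Slc36a1, Slc12a4, Slc9a5, Slc20a2, Slc31a1, Slc11a2, Slc39a13, Slc35a1, Slc35a3 and Slc35d2, and the genes named from pathway lists. Symbols were matched to RefSeq gene IDs for 16313 genes and for all 174 members.

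Replicate numbers come from the labels, which state no shared litter or day. Deviations of same-numbered libraries from their group means correlated at 0.19 to 0.602 between tolerized and activated cells and at 0.146 to 0.636 between inflamed and activated cells, and at -0.463 to 0.273 in the other 4 comparisons. In none of the 6 did every library correlate best with its own number. The reported tests used no pairing in any comparison, and a replicate block was run only as an alternative. Alternatives were other scalings, filters, pseudocounts and fits, limma-voom, a 2-fold limit, a replicate block, and each library left out. Added after seeing the data were factors from tested genes, the block in 2 groups alone, and a fit without activated 1 and inflamed 1. No locations, isoforms or protein sequences were analysed here.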

Additional observations from a re-analysis of the deposited data

How the results depend on the processing

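The counts of 121, 124 and 127 members called in activated, tolerized and inflamed cells against naive cells stayed within 1.5 times under the scalings, filters, pseudocounts, fits and limma-voom run. With a 2-fold limit they were 56, 64 and 75. Leaving out each library gave 106 to 123, 114 to 126 and 113 to 129. Of the named members called, 46 of 53, 49 of 55 and 47 of 52 kept the call without any single library. The median of all genes shifted, with library size alone as the scaling, by -0.27, -0.30 and -0.32 on the log2 scale, and upper-quartile scaling by -0.19, -0.22 and -0.20. Under library size alone Slc38a10 reversed to -0.040, -0.079 and -0.022, and in inflamed cells Slc6a6 to -0.029 and Slc9a8 to -0.080.

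Calls between exposed groups were less firm. Tolerized against activated cells gave 0 in every fit run, each library left out included (0 to 0). The 3 calls of inflamed against activated cells were 1 with a 2-fold limit and 1 with only the 2 groups compared, and 2 to 3 with a library left out. The 5 calls of inflamed against tolerized cells were 3 with a filter at 5 CPM, 3 with limma-voom, 1 with only the 2 groups compared, 1 with only the 9 exposed libraries, 2 with a 2-fold limit, and 1 to 5 with a library left out. Without activated 1 and inflamed 1, richest in macrophage markers, there were 3. Fewer libraries set the spread in the smaller fits. For the others the cause was not tested.

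With a replicate block over all 12 libraries the counts were 122, 124 and 129 against naive cells, 0 in tolerized against activated, 4 in inflamed against activated and 5 in inflamed against tolerized cells. With the block in the 2 groups alone, chosen after seeing the data, they were 102, 120, 116, 0, 0 and 0 in the same order. Members near 1 CPM are limited by depth and by the pseudocount.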
